A study of Mus musculus with 24 samples.

Results

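Clustered histone genes are the protein-coding genes that lie together in histone gene clusters. They were chosen by symbol: protein-coding genes of the GENCODE M21 annotation of GRCm38 whose symbol begins with Hist1h, Hist2h, Hist3h or Hist4h. This gave 67 genes, of which 65 are among the 49585 genes of each count table, and Hist1h2bm and Hist1h2bh were not analysed here. By histone type the 67 genes comprise 6 H1, 18 H2A, 18 H2B, 12 H3 and 13 H4 genes. The Hist1 cluster holds 54 of them (chr13:21715763-23934851), Hist2 holds 10 (chr3:96219865-96270132), Hist3 holds 2 (chr11:58948920-58956830) and Hist4 holds 1 (chr6:136801553-136804415).

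H2A, H2B, H3 and H4 are the core histones around which DNA is wrapped, and H1 is the linker histone that binds where DNA enters and leaves the nucleosome. Most clustered histone genes are transcribed in S phase, when new DNA is packed, and their mRNA ends in a short stem-loop, bound by the protein SLBP, in place of a poly(A) tail. Some, among them Hist1h1c, Hist1h2bc and Hist2h2be, are known also to make polyadenylated mRNA in cells that do not divide. Many histone variants encoded elsewhere in the genome are made also outside S phase.

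From male C57BL/6J mice, 24 total RNA libraries of whole fat pads were sequenced, in 6 groups. In the diet experiment, wild-type mice received 60% (n = 4) or 10% (n = 4) of their energy as fat over 20 weeks, and subcutaneous fat (SAT) was taken. In the genotype experiment, Azin2-/- mice and their wild-type littermates all ate the 60% fat diet over 8 weeks. SAT (5 wild-type and 3 Azin2-/- libraries) and epigonadal fat (GAT, 4 libraries of each genotype) were sequenced, so the controls of this experiment were themselves on a high-fat diet. Azin2-/- mice lack Azin2, antizyme inhibitor 2, a regulator of polyamine metabolism. The labels do not state that libraries of a group come from separate animals, and p-values therefore measure the spread between libraries.

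Library depth lay between 31.96 and 46.62 megareads. Azin2 was at 14.6 to 26.0 CPM (counts per megaread of the library total) in wild-type SAT, 6.73 to 11.5 in Azin2-/- SAT, 22.9 to 26.6 in wild-type GAT and 12.7 to 19.8 in Azin2-/- GAT, and no source used here gives whether its counted exons lie in the deleted part. Adipoq, the adipocyte gene for adiponectin, was at 763 to 3182 CPM over the 24 libraries, lowest in low-fat SAT replicate 1. Of the low-fat SAT libraries, replicate 1 went against its label: the homeobox gene Hoxc10 was at 0.0469 CPM there, against 25.5 to 31.5 CPM in low-fat replicates 3, 5 and 6, and 8 epididymis genes summed to 22510 CPM. The same 8 genes summed to 5880 CPM in wild-type GAT replicate 3, and to at most 0.439 CPM in the other 22 libraries. A sum of 12 skeletal muscle genes reached 68880 CPM in Azin2-/- SAT replicate 2, 60461 in wild-type SAT replicate 3, 22772 in low-fat replicate 5 and 6261 in high-fat replicate 6, against 12.5 to 1087 in the other 20. Values without these libraries stand beside the sums, the counts and the called genes they moved.

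The stem-loop that ends histone mRNA was looked for in the transcripts of all 67 genes, because it separates mRNA that can lack a poly(A) tail from mRNA that reads on past it. A 16-base stem-loop with a loop of 4 bases, here in capitals, was found in 44 genes, in 6 spellings that differ by histone type. The first of the 4 spellings below was in 26 genes (3 H1, 10 H2A, 8 H2B and 5 H3), the second in 7 genes that were all H4, the third in 6 genes, Hist1h2bb and Hist1h3f among them, and the fourth in Hist1h4i and Hist2h4.

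Stem-loop of Hist1h1c and 25 others: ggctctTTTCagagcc
Stem-loop of Hist1h4c, Hist1h4h and 5 other H4 genes: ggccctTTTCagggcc
Stem-loop of Hist1h2bb, Hist1h3f and 4 others: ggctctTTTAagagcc
Stem-loop of Hist1h4i and Hist2h4: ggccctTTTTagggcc

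The transcript models differed in how far they run on past this element. The Hist1h2bj model ended 23 bases after the stem-loop and that of Hist1h4h 46 bases after it, whereas 330 bases follow it in Hist1h4i, 840 in Hist1h1c, 1643 in Hist3h2a and 1861 in Hist1h2be. The models of Hist1h2bc, Hist2h2be and Hist1h4a held no match to the 6 spellings. Of the 67 models, 22 had more than 100 bases after the stem-loop.

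Promoter windows from 250 bases before to 50 bases after the start were found for 62 of the 67 genes in RefSeq (GRCm38.p6). Those of Hist1h1c, the gene of most counts, Hist1h2bj, the gene that rose most with the diet, and Hist1h4a, the gene that fell most, are printed here with matches to CCAAT (the NF-Y box) and TATAAA (the TATA box) in capitals, on either strand.

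Hist1h1c promoter, chr13:23738557-23738856, plus strand: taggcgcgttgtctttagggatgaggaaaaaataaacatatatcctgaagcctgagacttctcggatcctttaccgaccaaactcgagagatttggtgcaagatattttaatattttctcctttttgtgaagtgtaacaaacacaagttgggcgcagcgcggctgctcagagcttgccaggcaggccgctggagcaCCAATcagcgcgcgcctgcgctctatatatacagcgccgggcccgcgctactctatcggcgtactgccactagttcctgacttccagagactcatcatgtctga
Hist1h2bj promoter, chr13:22042948-22043247, plus strand: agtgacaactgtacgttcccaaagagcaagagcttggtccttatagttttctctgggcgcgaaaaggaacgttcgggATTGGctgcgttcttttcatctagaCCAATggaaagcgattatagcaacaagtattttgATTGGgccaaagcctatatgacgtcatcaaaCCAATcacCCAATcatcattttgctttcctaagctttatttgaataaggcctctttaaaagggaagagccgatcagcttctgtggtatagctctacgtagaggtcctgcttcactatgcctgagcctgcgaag
Hist1h4a promoter, chr13:23761200-23761499, minus strand: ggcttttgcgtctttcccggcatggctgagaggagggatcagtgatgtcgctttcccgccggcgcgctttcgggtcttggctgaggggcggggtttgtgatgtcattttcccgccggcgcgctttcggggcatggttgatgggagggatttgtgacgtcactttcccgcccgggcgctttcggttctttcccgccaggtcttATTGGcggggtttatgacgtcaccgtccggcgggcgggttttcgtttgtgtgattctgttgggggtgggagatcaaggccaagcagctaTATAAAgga

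CCAAT was present in 53 of the 62 windows (85.5%), against 37.4% of 32851 windows of the same length over all genes. It was in each of the H1, H2A, H2B and H3 windows but in 3 of 12 H4 windows, of which Hist1h4a is one. TATAAA was in 35 of 62 (56.5%, against 13.6%). ATTTGCAT, the octamer known from H2B promoters, was in 13 of 62 (21.0%, against 1.74%), of which 7 were H2A and 6 H2B windows. H2A and H2B genes that start near each other on opposite strands have overlapping windows, and the same site can count in both. Hist1h2ah and Hist1h2bk share their octamer in this way, so these counts are not counts of separate sites. Both strands were searched, no motif contains another, and a match describes letters and not binding.

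Of the 260024 counts that the 65 genes had in the 24 libraries, Hist1h1c (chr13:23738808-23740367), an H1 gene, held 40.5% and Hist1h2bc (chr13:23684199-23692908), an H2B gene, held 34.1%. The 8 genes of most counts held 95%. By type, H2B genes held 45.1%, H1 genes 42.7%, H4 genes 6.92%, H3 genes 3.16% and H2A genes 2.10%. These are shares of the RNA counted, and how much mRNA without a poly(A) tail the libraries hold is not known. Counts of other such RNAs are given below. The Hist1 cluster held 92.2%, Hist2 6.46%, Hist3 1.33% and Hist4 0.0558%.

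Levels of different genes were compared per kilobase of exon, as the mean over the 24 libraries. Hist1h2bc was highest at 82.5 CPM per kilobase (43.6 to 113 over the libraries), followed by Hist1h1c at 73.4 (44.5 to 119.8) and by the H4 gene Hist1h4h at 29.7 (8.13 to 47.0). The ranges of Hist1h2bc and Hist1h1c overlapped. The H3 gene Hist2h3c2 came next at 6.98 CPM per kilobase, then Hist1h4i at 4.47, Hist1h2be at 4.20, Hist2h2be at 3.35, the H1 gene Hist1h1e at 2.84, Hist1h2bj at 2.72 and the H2A gene Hist2h2aa2 at 2.68, and the ranges of these neighbours overlapped. Hist1h2bb at 1.70, Hist3h2a at 1.62, Hist1h2bg at 1.25, Hist1h4a at 0.870 and Hist1h4c at 0.748 CPM per kilobase completed the 15 highest. By coding length 14 of these 15 stayed among the 15 highest, and Hist1h4a ranked 16.

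**Figure D1:**
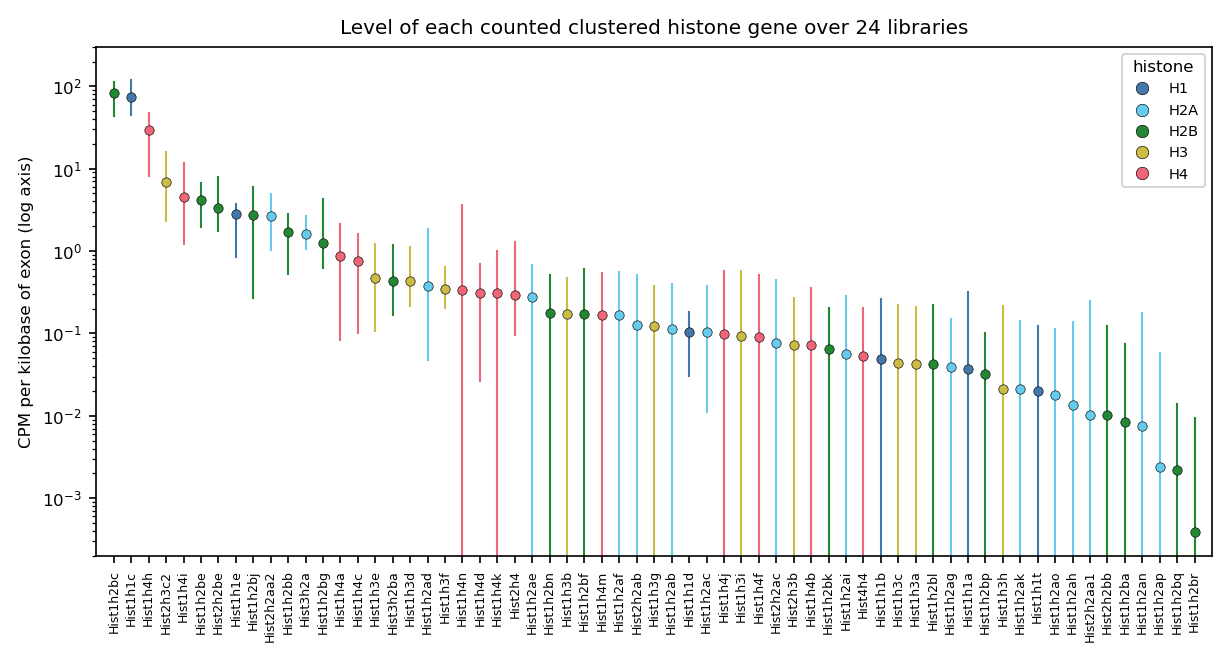
Level per kilobase of exon (CPM, log axis) of each clustered histone gene with counts, ordered from high to low. Dots are means over the 24 libraries, lines run from the lowest to the highest library, and colours give the histone type. Hist1h2bc (82.5), Hist1h1c (73.4) and Hist1h4h (29.7) have higher means than Hist2h3c2 (6.98), the next gene.

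For scale, the histone variants outside the clusters were measured the same way. H3f3b, which encodes the replacement histone H3.3, was at 68.9 CPM per kilobase and H3f3a, its second gene, at 46.1. The linker histone gene H1f0 was at 50.7 and H2afz, which encodes H2A.Z, at 37.5. The other 7 variants of the list were at 1.26 to 24.4. The means of Hist1h2bc and Hist1h1c were thus above those of all 11 variants, and that of Hist1h4h was below these 4 and above the other 7. This order is that of means over the 24 libraries and need not hold in each group. In their lowest libraries Hist1h2bc was at 43.6 and Hist1h1c at 44.5 CPM per kilobase, below the means of H3f3b, H1f0 and H3f3a. H3f3b averaged 203 CPM in low-fat SAT, near its 205 over the 24 libraries, whereas Hist1h2bc averaged 62.9 CPM there against 95.4.

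Most clustered genes were near the limit of detection. Of the 65 genes, 24 had counts in all 24 libraries, 37 had under 100 counts in the 24 libraries together, and Hist1h2aa and Hist2h3c1 had 0 counts, which allows up to 3 counts (95% confidence, counting error only). In total 26 genes passed the filter on low counts in at least 1 comparison, and the other 39 held 1279 counts (0.492% of the counts of all 65), the highest of them 139. The S phase linker histone genes Hist1h1a and Hist1h1b had 26 and 32 counts. The testis genes Hist1h1t, Hist1h2ba and Hist1h2aa had 18, 3 and 0 counts.

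The genes that passed the filter and the others differed in length and in sequence. Of the 26 that passed, 18 had a model with more than 100 bases after the stem-loop, against 3 of the other 39. Median model length was 1079 bases in the 26 and 469 in the 39, and the filter acts on counts that are not corrected for length. Of the 15 genes highest per kilobase, 8 had more than 100 bases after the stem-loop, against 13 of the other 50. A stem-loop itself was in 23 of the 26 and in 19 of the 39. The share of 75-base windows found in no other gene had a median of 77.8% in the 26 and of 41.4% in the 39, and 11 of the 39 but 0 of the 26 had models with at most 3 bases outside the coding sequence. The median share was 72.9% in the 15 genes highest per kilobase and 52.8% in the other 50. A read from a sequence found in several genes may not be counted for any of them, and the part of this in the low counts was not tested.

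Low counts of RNA without a poly(A) tail were also seen outside the histone genes. Rn7sk, the 7SK RNA that holds back transcription elongation, was at 0.112 to 16.3 CPM with a median of 0.778 over the 24 libraries. Rmrp, the RNA of RNase MRP, was at 0.0498 to 7.57 CPM with a median of 0.252. Rpph1, the RNA of RNase P, was at 0 to 8.19 CPM with a median of 0.325. The telomerase RNA Terc and the Y RNAs Rny1 and Rny3 had medians of 0. These 6 RNAs were chosen after the low histone counts were seen, and their share in the libraries was not tested as a cause.

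Many H2A and H2B genes are transcribed away from each other from a start region they share, and 12 such pairs had starts within 500 bases. In 5 pairs at least 1 gene had 100 counts or more. Hist1h2bc had 88671 counts and its partner Hist1h2ac 243, a ratio per kilobase of 799. Hist1h2bj had 1184 counts and Hist1h2ag 19, and Hist2h2be had 8192 and Hist2h2ac 38, ratios per kilobase of 69.4 and 43.5. The remaining pairs of these 5 were closer. Hist1h2bg had 737 counts and Hist1h2ae 183, a ratio per kilobase of 4.55. In the other the H2A gene was higher, with 76 counts in Hist1h2bf and 205 in Hist1h2ad, a ratio of H2B to H2A of 0.455. Over all 12 pairs the H2B gene was higher per kilobase in 8 and the H2A gene in 4. Most of these pairs had under 100 counts in both genes, down to 1 and 1 in Hist1h2ap and Hist1h2br, so this tally is uncertain. In the pairs of Hist1h2bc, Hist1h2bj and Hist2h2be, 1 gene was far above the gene it is paired with. Of the windows of Hist1h2ag 22.4% were found in no other gene, against 90.3% in Hist1h2ac and 80.5% in Hist2h2ac.

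Summed over the 65 genes, normalised levels were 196 ± 22.0 CPM (SD, n = 4) in low-fat SAT, 249 ± 11.5 (n = 4) in high-fat SAT, 267 ± 58.6 (n = 5) in wild-type SAT, 339 ± 31.5 (n = 3) in Azin2-/- SAT, 349 ± 39.1 (n = 4) in wild-type GAT and 305 ± 10.7 (n = 4) in Azin2-/- GAT. Low-fat SAT libraries lay between 173 and 225 CPM and high-fat SAT libraries between 239 and 265, without overlap. Of this sum, Hist1h2bc alone averaged 62.9 CPM in low-fat and 109 in high-fat SAT. Wild-type SAT (207 to 364) overlapped Azin2-/- SAT (304 to 363), and wild-type GAT (293 to 382) overlapped Azin2-/- GAT (291 to 317). Without wild-type replicate 3 and Azin2-/- replicate 2, the muscle-rich libraries, SAT summed to 207 to 261 CPM in wild-type and to 304 and 363 in Azin2-/-, without overlap. Low-fat SAT without replicate 1 summed to 188 to 225 CPM, and wild-type GAT without replicate 3 to 293 to 382. In bulk tissue fewer cells of a type and less RNA per cell cannot be told apart.

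The sums by type largely follow the genes of most counts. H2B genes summed to 93.2 ± 14.9 CPM (n = 4) in low-fat and 135 ± 5.14 (n = 4) in high-fat SAT, whereas H1 genes summed to 77.7 ± 2.19 and 81.4 ± 6.64. Of these sums Hist1h2bc made 62.9 CPM in low-fat and 109 in high-fat SAT, and Hist1h1c 73.4 and 74.4. Hist2h2be, also an H2B gene, went from 13.0 to 5.07 CPM. By cluster, Hist1 genes summed to 174 ± 23.6 CPM in low-fat and 231 ± 11.1 in high-fat SAT. Hist2 genes went the other way, from 18.9 ± 2.93 to 14.1 ± 1.40 CPM, with overlapping libraries (15.8 to 22.3 and 13.1 to 16.1). Of all counts, Hist2h3c2 held 2.56% where H3 genes held 3.16%, and Hist1h4h held 4.89% where H4 genes held 6.92%. H1 genes were lowest in the diet experiment and summed to 126 ± 40.6 (n = 5) in wild-type SAT and 157 ± 22.5 (n = 4) in wild-type GAT. H3 genes ranged from 5.64 ± 1.64 CPM in low-fat SAT to 13.0 ± 5.27 (n = 3) in Azin2-/- SAT, and H4 genes from 15.2 ± 5.497 in low-fat SAT to 24.2 ± 5.43 in wild-type GAT. H2A genes stayed between 4.82 ± 0.590 and 7.52 ± 1.82 CPM in the group means. Single libraries moved some of these means. H1 genes summed to 195 CPM in wild-type SAT replicate 3 and to 109 ± 15.3 (n = 4) without it, and H4 genes to 31.1 there and to 17.7 ± 2.57 without it. In low-fat SAT without replicate 1, H2B genes summed to 98.3 ± 13.2 (n = 3) and H4 genes to 17.8 ± 2.06. In Azin2-/- SAT without replicate 2, H3 genes summed to 12.8 and 18.3 CPM in the remaining libraries. H2A genes summed to 10.1 CPM in wild-type GAT replicate 3 and to 6.66 ± 0.683 (n = 3) without it. These sums were not tested. The diet and genotype experiments differ in mice and in weeks of diet (20 and 8), so levels compared between them cannot be tied to diet, genotype or depot.

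**Figure D2:**
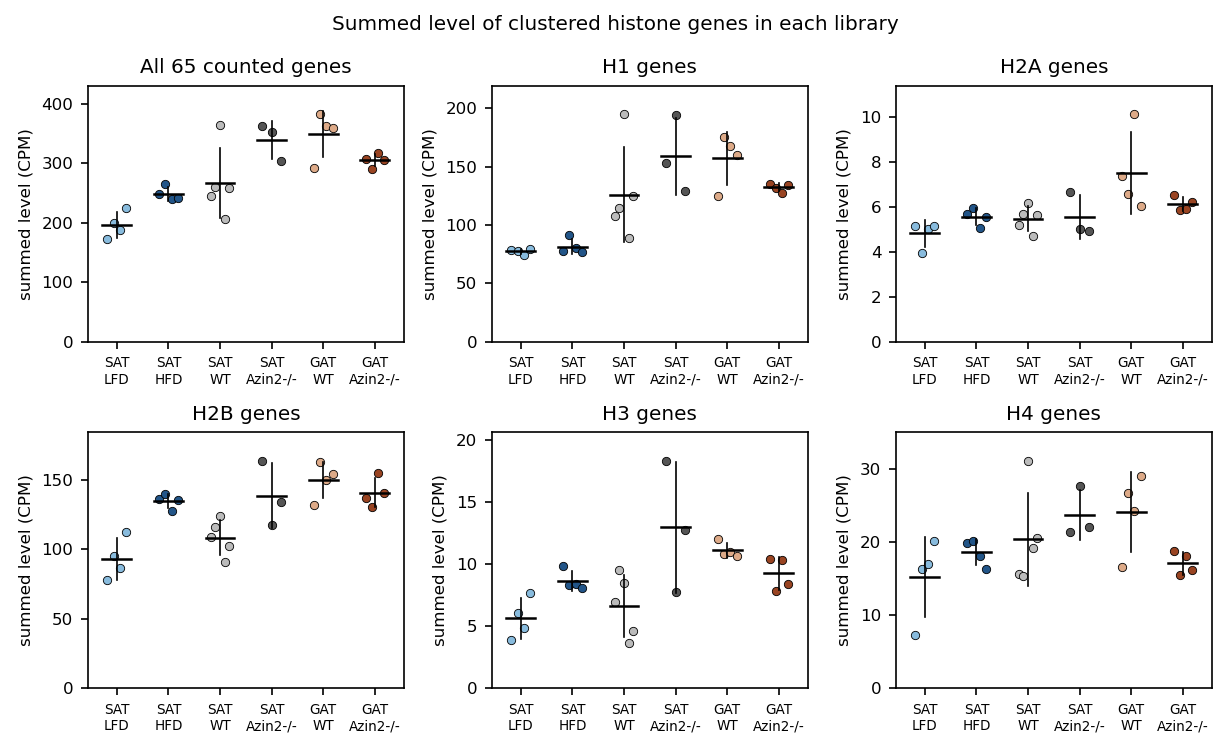
Normalised CPM summed over the 65 clustered histone genes and over the genes of each type, per library (dots), with the mean and SD of each group (bars), in the 6 groups. LFD and HFD are the low-fat and high-fat groups, and WT is wild-type. High-fat SAT libraries (239 to 265 CPM) stand above low-fat SAT libraries (173 to 225) in the sum over all genes. Hist1h1c and Hist1h2bc held 74.6% of the counts of these genes over the 24 libraries.

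To ask how the diet related to these genes, high-fat SAT was compared with low-fat SAT. Of 22 genes past the filter, 3 rose and 2 fell at an adjusted p under 0.05 (edgeR quasi-likelihood test, Benjamini-Hochberg adjustment over all 17066 genes tested), with 10.8% of all genes tested called higher and 10.4% lower. The called share of 22.7% was near the 21.2% of all genes tested. The median log2 fold change was 0.20 over the 22 genes and -0.09 over all genes. High-fat and low-fat libraries did not overlap for 4 genes with higher values (18.6% of all genes tested), the 3 called genes and Hist2h3c2, and for the 2 genes that fell (13.9%).

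The gene that rose with most counts was Hist1h2bc. Its normalised level was 50.4, 63.3, 59.3 and 78.6 CPM in low-fat replicates 1, 3, 5 and 6 and 109.6, 112, 103 and 109 CPM in high-fat replicates 3, 4, 5 and 6, so that each high-fat library exceeded each low-fat library. The difference was 0.75 on the log2 scale (SE 0.12, adjusted p = 0.00461), and 0.69 (adjusted p = 0.000819) without low-fat replicate 1.

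Hist1h2bj, a second H2B gene, rose most. It was at 0.125, 0.527, 0.301 and 0.596 CPM in the low-fat libraries and at 1.92, 2.77, 2.0 and 2.21 CPM in the high-fat libraries, without overlap. On the log2 scale it rose by 2.50 (SE 0.43, adjusted p = 0.00736), and 2.21 (adjusted p = 0.000403) without low-fat replicate 1. Of its 75-base windows 49.6% are found in no other gene, so that its counts are uncertain.

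Hist2h2aa2, an H2A gene, was at 0.623, 0.694, 0.628 and 0.769 CPM in the low-fat and at 1.71, 1.11, 1.49 and 1.15 CPM in the high-fat libraries. Its log2 rise of 0.96 passed the test (SE 0.21, adjusted p = 0.0184), with each high-fat library above each low-fat library. All of its windows are shared with Hist2h2aa1, which had 7 counts where Hist2h2aa2 had 1338, and the call was lost without low-fat replicate 5, high-fat replicate 3 or high-fat replicate 5 (adjusted p = 0.0513, 0.0594 and 0.056).

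Hist2h2be, the H2B gene of the Hist2 cluster and one of those known for polyadenylated mRNA, went the other way. It was at 17.2, 14.1, 11.01 and 9.68 CPM in the low-fat libraries and at 5.49, 5.18, 5.02 and 4.56 CPM in the high-fat libraries. The groups did not overlap and the highest value was in low-fat replicate 1. The log2 fold change was -1.42 (SE 0.23, adjusted p = 0.00526), and -1.20 (adjusted p = 0.00026) without that library.

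Hist1h4a, an H4 gene of few counts, fell most. It was at 0.312, 0.916, 0.437 and 0.894 CPM in the low-fat and at 0.158, 0.136, 0.0732 and 0.0559 CPM in the high-fat libraries, where 2 to 6 counts lay behind each value. Its log2 fold change was -2.59 (SE 0.48, adjusted p = 0.00926), and -2.79 (adjusted p = 0.00109) without low-fat replicate 1.

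Hist1h1c, the gene of most counts, was at 76.9, 73.8, 70.0 and 73.1 CPM in the low-fat and at 71.9, 83.5, 72.6 and 69.5 CPM in the high-fat libraries, and the groups overlapped. Its log2 fold change was -0.03 with an approximate 95% interval from -0.23 to 0.16 (adjusted p = 0.819), and 0.04 without low-fat replicate 1. Without either of the muscle-rich libraries, low-fat replicate 5 or high-fat replicate 6, the called genes kept their direction and, Hist2h2aa2 without low-fat replicate 5 apart, their calls. Without low-fat replicate 1, 23 genes were tested, 3 rose and 3 fell (26.1%, against 47.0% of all genes tested), and the groups did not overlap for 4 genes with higher values (25.7% of all genes tested) and for 3 with lower values (26.7%). The third gene to fall was the H2B gene Hist1h2bb, at 0.27 CPM in low-fat replicate 1, 1.28 to 1.41 in the other low-fat and 0.597 to 0.854 in the high-fat libraries (log2 fold change -0.85, adjusted p = 0.00855).

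**Figure D3:**
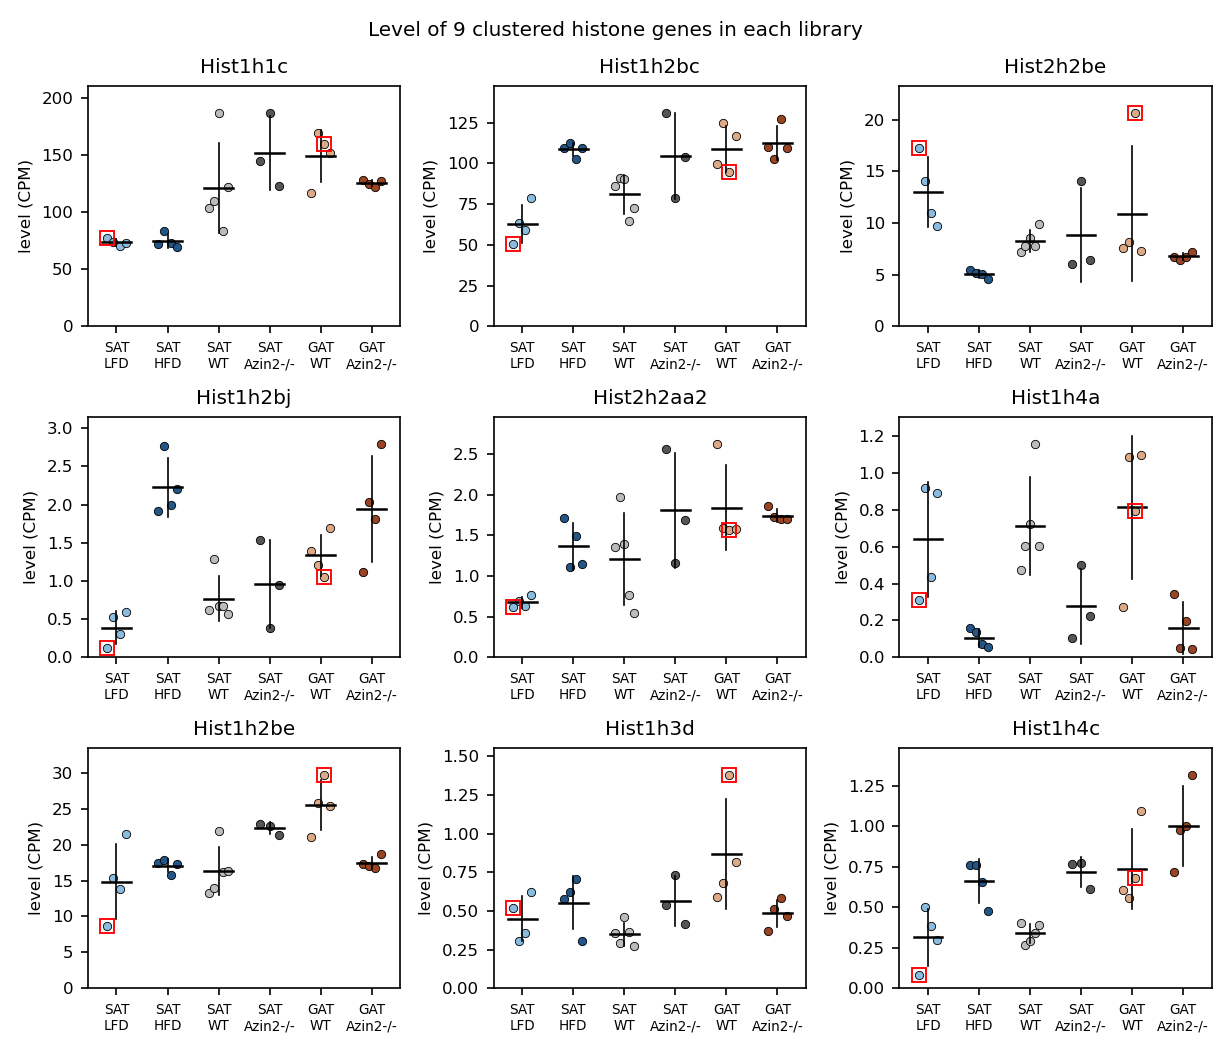
Normalised CPM per library (dots) of 9 clustered histone genes in the 6 groups, with the mean and SD of each group. LFD and HFD are the low-fat and high-fat groups, WT is wild-type, and red squares mark low-fat SAT replicate 1 and wild-type GAT replicate 3. Hist1h2bc is higher and Hist2h2be lower in each high-fat SAT library than in each low-fat SAT library.

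Genes of the cell cycle moved with the diet as well. All 12 genes of a mitosis list rose (median log2 fold change 2.32), among them the mitotic cyclin gene Ccnb2 (2.33, adjusted p = 0.000806), and 17 of 28 genes of a DNA replication and S phase list rose and 0 fell (median 0.55), among them the helicase gene Mcm6 (1.23, adjusted p = 0.00149) and the ribonucleotide reductase gene Rrm2 (1.85, adjusted p = 0.00175). Of 11 histone variants outside the clusters, Cenpa, the centromere variant of H3, rose (1.71, adjusted p = 0.00114) and H1f0 (-0.43, adjusted p = 0.00846) and H2afv (-0.27, adjusted p = 0.0344) fell. Of 20 histone chaperone genes 2 rose, Asf1b (1.71) and Chaf1a (0.95), and 2 fell, among them Rbbp4 (-0.34). Of 18 genes of histone transcription and histone mRNA processing, the 3' exonuclease gene Eri1 rose (0.44, adjusted p = 0.00588) and the cap-binding gene Ncbp2 fell (-0.32, adjusted p = 0.0119). Beside these lists, 10.8% of all genes tested were called higher and 10.4% lower.

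Without low-fat replicate 1 the calls in these lists were more numerous, as they were over all genes tested, of which 23.5% were called higher and 23.5% lower. All 12 mitosis genes rose (median 2.19). Of the S phase list 22 genes rose and 2 fell (median 0.75), Mcm7 (-0.39) and Dut (-0.25), which are named after their values were seen. Of the variants 2 rose and 3 fell, with H2afz, which encodes H2A.Z, now among those that rose (0.53, adjusted p = 0.000282). Of the chaperones 7 rose and 5 fell, and of the processing genes 3 rose and 5 fell, among them Npat, the factor that switches on histone genes in S phase, which rose (0.72, adjusted p = 0.000575).

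The 10 genes of a macrophage marker list, all with counts in each library, all rose with the diet, and summed to 313 to 434 CPM in low-fat and 1175 to 1506 CPM in high-fat SAT. Their part in the histone results was not tested. As CPM of the library total, the mitosis list summed to 29.4 ± 11.9 in low-fat and 159 ± 18.8 in high-fat SAT (n = 4 each). The 39 histone genes that did not pass the filter in any comparison summed to 0.927 ± 0.408 and 1.16 ± 0.243 normalised CPM. These sums rest on 21 to 73 counts per low-fat library and 36 to 54 per high-fat library. A gene that rose clearly could have passed the filter and left this set, so the sum of the set cannot be set against the mitosis list. Of the low-fat libraries, replicate 1 had 1.52 CPM in this sum and the other 3 had 0.583 to 0.844, below the 0.902 to 1.42 of the high-fat libraries. The groups thus overlapped with replicate 1 and did not overlap without it. In the latter setting 25.7% of all genes tested had higher values without overlap.

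**Figure D4:**
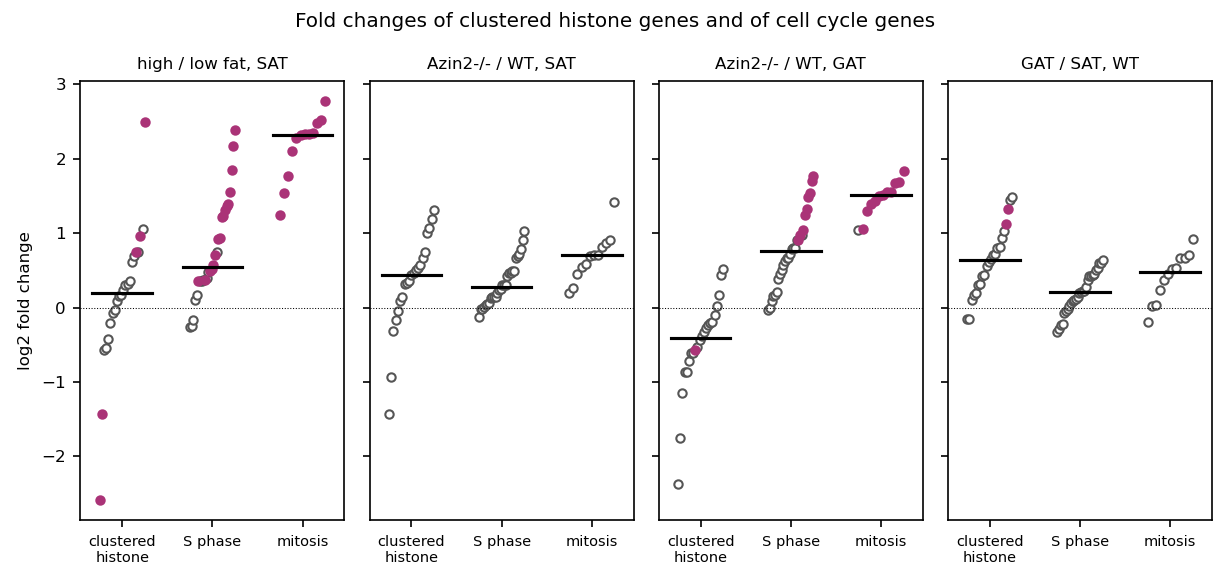
Log2 fold changes of the tested clustered histone genes, of the DNA replication and S phase genes and of the mitosis genes in 4 comparisons. Each point is a gene, filled where its adjusted p was under 0.05, and bars are medians. In the diet comparison the medians are 0.20, 0.55 and 2.32, and in the GAT genotype comparison they are -0.41, 0.76 and 1.51.

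In SAT, Azin2-/- was compared with wild-type under the 60% fat diet. Of 21 clustered histone genes past the filter, 0 were called by edgeR, where 0.0059% of the 16948 genes tested, a single gene, was called. An unadjusted p under 0.05 was reached by 5 of the 21 histone genes, against 10.3% of all genes tested. The DESeq2 Wald test called 1 histone gene, Hist1h3f, and 169 genes higher and 169 lower of the 16948 tested. Log2 fold changes were above 0 in 16 of the 21 genes, with a median of 0.44 against 0.01 over all genes tested.

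The H3 gene Hist1h3f had the smallest p. It was at 0.262, 0.270, 0.290, 0.254 and 0.271 CPM in the wild-type and at 0.770, 0.464 and 0.778 CPM in the Azin2-/- libraries, without overlap. Its log2 fold change was 1.31 (SE 0.25, adjusted p = 0.213, or 0.0383 by DESeq2). The H4 gene Hist1h4c was at 0.404, 0.270, 0.290, 0.339 and 0.391 CPM in the wild-type and at 0.770, 0.774 and 0.611 CPM in the Azin2-/- libraries, also without overlap, and the log2 difference was 1.07 (SE 0.24, adjusted p = 0.244). These were the 2 genes of the 21 whose groups did not overlap, with higher values in Azin2-/- (3.46% of all genes tested), and 0 genes had lower values in Azin2-/- without overlap (3.8%).

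The other 3 of smallest p were Hist1h4a with a log2 fold change of -1.43 (adjusted p = 0.425), Hist1h2be with 0.44 (adjusted p = 0.426) and Hist2h3c2 with 1.00 (adjusted p = 0.481). Without the libraries rich in muscle transcripts, Azin2-/- replicate 2 and wild-type replicate 3, again 0 of 22 genes were called, and the 5 log2 fold changes were 1.54, 0.97, -2.11, 0.57 and 1.40 in the order Hist1h3f, Hist1h4c, Hist1h4a, Hist1h2be and Hist2h3c2. Hist2h3c2 shares 62.6% of its windows with Hist2h3c1. Hist1h1c (0.31, 95% interval -0.18 to 0.81), Hist1h2bc (0.36, 0.01 to 0.71) and Hist2h2be (0.09, -0.46 to 0.64) were not called, and Hist2h2be was at -0.40 without both muscle-rich libraries. The interval of Hist1h2bc lies above 0 although its unadjusted edgeR p was 0.0753, because these approximate intervals are narrower than the test allows. Of the mitosis and the S phase lists 0 of 12 and 0 of 28 genes were called (medians 0.70 and 0.27).

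In GAT, Azin2-/- against wild-type gave 1 call among 22 clustered histone genes. With 5.45% of all 16778 genes tested called higher and 1.32% lower, 0 histone genes rose (edgeR, with 0 higher also by DESeq2) and 1 fell, a called share of 4.55% against 6.77%. Of the 22 genes, 6 had an unadjusted p under 0.05 (28.7% of all genes tested), and 18 had log2 fold changes below 0. The median was -0.41, against -0.03 over all genes tested.

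The gene that fell was Hist1h2be, an H2B gene whose model extends well past its stem-loop. It was at 21.1, 25.8, 29.7 and 25.4 CPM in the wild-type and at 17.2, 17.1, 16.7 and 18.7 CPM in the Azin2-/- libraries, without overlap. The log2 fold change was -0.57 (SE 0.11, adjusted p = 0.0408). It spans chr13:23583670-23621124 and overlaps Hist1h1e on the same strand, so reads of the overlap cannot be assigned with certainty. The call was lost without wild-type replicate 2 or 4 or without Azin2-/- replicate 2, 3 or 4, at adjusted p of 0.0885 to 0.142, and was kept without wild-type replicate 3 (-0.47, adjusted p = 0.048). Leaving out any of those 5 libraries left 0 genes called higher over all genes tested and at most 1 called lower.

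Hist1h4a, the H4 gene that fell with the diet, was at 0.273, 1.09, 0.796 and 1.10 CPM in wild-type and at 0.345, 0.0514, 0.195 and 0.0447 CPM in Azin2-/- GAT (named after its values were seen). Its log2 fold change was -2.37 (SE 0.68, adjusted p = 0.069), with the groups overlapping by wild-type replicate 1, and DESeq2 called it (adjusted p = 0.0133). Over all 16778 genes tested DESeq2 called 1869 higher and 1210 lower. Hist1h1c (-0.27, 95% interval -0.50 to -0.05), Hist1h2bc (0.03, -0.18 to 0.23) and Hist2h2be (-0.72, -1.40 to -0.04) were not called. The approximate interval of Hist2h2be lies below 0, but its unadjusted edgeR p was 0.0702. Hist2h2be was at 20.7 CPM in wild-type replicate 3 and at 7.26 to 8.11 in the other wild-type libraries, beside 6.40 to 7.20 in Azin2-/-, and its log2 fold change was -0.18 without that library. Groups with lower values in Azin2-/- did not overlap for 3 genes, Hist1h2be, Hist2h2be and Hist1h3d (5.91% of all genes tested), and for 0 genes with higher values (8.49%).

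Cell cycle genes rose in the same comparison, and these calls too were lost without each of the 5 libraries named above. Of the mitosis list 11 of 12 rose (median 1.51), among them the kinase gene Aurkb (1.29, adjusted p = 0.0408), and of the S phase list 9 of 28 rose and 0 fell (median 0.76), among them Cdt1, which licenses replication origins (1.71, adjusted p = 0.0408), and Pcna, the sliding clamp of DNA polymerase (0.91, adjusted p = 0.0408). Of the histone variants, Cenpa (1.09, adjusted p = 0.0411) and H2afz (0.56, adjusted p = 0.0416) rose. The macrophage list summed to 723 to 1027 CPM in wild-type and 1246 to 2757 CPM in Azin2-/- GAT, with 8 of 10 genes called higher, and its part in the histone results was not tested. A list of 6 mesothelium genes summed to 62.9 to 499 CPM in wild-type and 30.4 to 136 CPM in Azin2-/- GAT, with 0 of 6 called.

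The depots were compared in wild-type mice. This comparison shares its wild-type libraries with the genotype comparisons and is not independent of them. In GAT, 2 of 22 genes were higher than in SAT and 0 lower, beside 2.47% of the 17030 genes tested called higher and 1.87% lower (9.09% against 4.33% in either direction). In 20 of 22 genes the log2 fold change was above 0, and the median was 0.63, against -0.01 over all genes tested. All 6 genes of the mesothelium list were called higher in GAT as well, summing to 62.9 to 499 CPM there and to 1.27 to 3.45 CPM in SAT. Of the 10 macrophage genes 1 was called higher, with sums of 723 to 1027 CPM in GAT and 410 to 741 CPM in SAT. The part of these cells in the histone results was not tested.

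Hist1h3d, an H3 gene, was at 0.357, 0.291, 0.463, 0.367 and 0.271 CPM in SAT and at 0.589, 0.682, 1.38 and 0.816 CPM in GAT, highest in GAT replicate 3, and the groups did not overlap. The log2 fold change was 1.32 (SE 0.31, adjusted p = 0.0455), and 1.10 (adjusted p = 0.0465) without SAT replicate 3 and GAT replicate 3. Hist1h4c was at 0.610, 0.556, 0.679 and 1.10 CPM in GAT, above the 0.270 to 0.404 CPM of SAT. Its log2 fold change of 1.12 had an adjusted p just under the threshold (SE 0.27, adjusted p = 0.0496). The Hist1h4c call was lost on leaving out any 1 of the 9 libraries (adjusted p of 0.064 to 0.116) and the Hist1h3d call on leaving out 8 of the 9 in turn (highest adjusted p = 0.108). With the animal mark as a replicate block 0 histone genes and 0 of all 17030 genes tested were called. Marks recur between depots, for example on SAT replicate 2 and GAT replicate 1, and the labels do not state whether libraries with the same mark come from the same animal. Hist2h2be was 0.43 higher in GAT on the log2 scale but -0.11 without GAT replicate 3. The groups did not overlap for 4 genes higher in GAT (4.82% of all genes tested), Hist1h3d, Hist1h4c, Hist1h2bc and Hist1h3f, and for 0 genes lower (5.67%). Of the mitosis and S phase lists 0 of 12 and 0 of 28 genes were called (medians 0.48 and 0.21).

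Whether the genotype effect differed between depots was tested as an interaction, in which a negative log2 value means a lower effect in GAT. Of the 26 histone genes tested, 0 were called by edgeR, where 0.0% of the 18033 genes tested were called. An unadjusted p under 0.05 was reached by 8 of the 26, against 11.2% of all genes tested, and DESeq2 called 1, Hist1h2be. The 5 genes of smallest p were Hist1h2be (-1.01, adjusted p = 0.312), Hist1h3f (-1.68), Hist1h3d (-1.53), Hist1h4d (-1.79) and Hist1h1e (-0.70). The log2 difference was below 0 in 23 of 26 genes and the median was -0.78, against -0.04 over all genes tested. DESeq2 gave an adjusted p of 0.00301 for Hist1h2be, and over all genes tested it called 114 higher and 44 lower. With wild-type SAT replicate 3 left out edgeR called Hist1h2be (-1.14, adjusted p = 0.0358), and with Azin2-/- GAT replicate 1 left out it called Hist1h3f (-1.80, adjusted p = 0.0467). Over all genes tested, 0 higher and 2 lower were called in the first setting and 93 higher and 14 lower in the second. Without Azin2-/- SAT replicate 2, wild-type SAT replicate 3 and wild-type GAT replicate 3 together, 0 were called and the 5 values were -1.03, -2.04, -1.08, -2.11 and -0.86 in the order above.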

How the data were processed

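The authors deposited whole read counts per Ensembl gene, not normalised, in a table for each library. The submitters' processing notes name cutadapt, STAR, HTSeq 0.6.1p1 and the build GRCm38 (mm10), and no source used here gives the counting mode, strand setting or annotation release. GENCODE M21 supplied symbols, types and coordinates. Groups followed the labels, and 0 columns were left unused. The test was the robust quasi-likelihood test of edgeR 4.0.16 (R 4.3.3) with TMM and filterByExpr (minimum count 10, minimum total 15), tested beforehand on simulated data, and calls were made at a p under 0.05 after Benjamini-Hochberg adjustment across every tested gene. Alternatives were DESeq2 1.42.0, its size factors, no filter, all 24 libraries in 1 fit, a replicate block and leaving out each replicate, and 2 combined omissions were chosen after seeing the data. Correlations of same-numbered or same-marked libraries, as deviations from group means with 0.5 CPM added, were -0.186 to 0.814, and not all were over 0.1. The value of 0.814 was that of Azin2-/- SAT replicate 2 and wild-type SAT replicate 3, the muscle-rich libraries. The mark shared by wild-type SAT replicate 2 and GAT replicate 1 gave 0.236, each being the closest match of the other. In the diet and genotype comparisons equal numbers or marks lie on mice of different diet or genotype and so are not 1 animal. Between depots the labels do not state whether equal marks are 1 animal, and the block was kept as an alternative. Levels are TMM-normalised CPM, and Azin2, marker and list sums are CPM of the library total.

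The members and lists were chosen with earlier results of these data known. Named were the 15 genes of highest level per kilobase, up to 8 called genes per direction by p, the 5 of smallest p where none was called, the testis genes, Hist1h1c, Hist1h2bc and Hist2h2be, and up to 3 called genes of each other list. A count of 0 allows up to 3 counts. This limit covers counting error alone, because without molecular identifiers reads are not separate molecules. Motifs and stem-loops were searched with Python 3.11.15.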

Additional observations from a re-analysis of the deposited data

Results flagged for a closer look

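Within groups of 4 or 5 libraries, the highest or lowest value lay far from the others for 8 of 89 gene and group combinations and for 1 sum. Chance gives about 1 in 20 such gaps. In wild-type GAT replicate 3, which held epididymis transcripts, Hist2h2be was at 20.67 CPM (7.258 to 8.113 in the other libraries) and Hist1h2bg at 2.645 CPM (0.7777 to 0.8846). In low-fat SAT replicate 1, which went against its label, Hist1h2bb was at 0.27 CPM (1.284 to 1.415).

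In wild-type SAT replicate 3, rich in muscle transcripts, Hist1h4i was at 8.626 CPM (1.867 to 2.147), and Azin2-/- SAT replicate 2, also rich in them, had 8.32 CPM. Hist1h2bj was at 1.286 CPM in wild-type SAT replicate 2 (0.5721 to 0.6781). Hist2h2aa2 was at 2.627 CPM in wild-type GAT replicate 1 (1.568 to 1.592) and at 1.857 CPM in Azin2-/- GAT replicate 1 (1.695 to 1.721). Hist2h3c2 was at 8.282 CPM in high-fat SAT replicate 3 (6.324 to 6.634). The sum of H2A genes was 3.94 CPM in low-fat SAT replicate 3 (5.027 to 5.162).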

How the results depend on the processing

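Counts called over all genes tested also changed with the setting and are given beside those of the histone genes. The diet counts of 3 genes higher and 2 lower became 5 and 2 in 1 fit of all 24 libraries. Over all genes tested, 1851 higher and 1771 lower became 2772 and 3284. In the genotype comparison of SAT, DESeq2 called 1 gene higher where edgeR called 0, and over all genes tested it called 169 higher where edgeR called 1. In GAT, the 1 gene lower became 2 with DESeq2, 0 without the low-count filter and 2 with the replicate block. Over all genes tested, 221 lower became 1210, 0 and 477 in the same order. Between depots, the 2 genes higher became 4 with DESeq2, 0 without the filter, 0 with the replicate block and 4 without SAT replicate 3 and GAT replicate 3 together. Over all genes tested, 420 higher became 1032, 285, 0 and 668 in the same order. The interaction had 1 gene lower by DESeq2, beside 44 lower over all genes tested. Leaving out 1 library at a time gave 0 to 3 genes lower in GAT, 0 to 2 genes higher between depots and 0 to 1 genes lower in the interaction. Over all genes tested these ranges were 0 to 924, 169 to 558 and 0 to 14. The cause was not tested.

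The replicate block, made from numbers and animal marks that the labels do not tie to animals, turned the log2 value of Hist1h1c in SAT genotype to -0.0115, of Hist1h2bc in GAT genotype to -0.0133 and of Hist1h2bc in the interaction to 0.00655. In effect it drops each library whose number or mark has no partner. With the diet these are low-fat SAT replicate 1 and high-fat SAT replicate 4. Leaving out 1 library gave Hist1h1c with the diet -0.0903 to 0.0388, Hist2h2be in SAT genotype -0.41 to 0.30, Hist1h2bc in GAT genotype -0.0468 to 0.0996 and Hist2h2be between depots -0.11 to 0.60. Hist2h2be was also at -0.40 in SAT genotype without both muscle-rich libraries, at -0.0915 between depots without SAT replicate 3 and GAT replicate 3, and at 0.22 in the interaction without Azin2-/- SAT replicate 2, wild-type SAT replicate 3 and wild-type GAT replicate 3. Each of the 39 genes under the filter had at most 139 counts in the 24 libraries together.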
